A study of Drosophila melanogaster with 31 samples.

Results

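Piwi-bound small RNA was described for all 129 transposable element entries of the deposited tables, from 1 of the 31 samples of the series. That sample was small RNA recovered with Piwi by immunoprecipitation (IP) from ovarian somatic cells (OSC), a *Drosophila melanogaster* line in culture that stems from ovarian follicle cells. The entries are the consensus sequences of element families, and no entry was left out. The rule that chose them used no measured value.

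The small RNA came from OSC with no knockdown or tagged protein named in the labels, recovered with an antibody against Piwi. It was set beside RNA from OSC transfected with small interfering RNA against EGFP (the control, 2 samples), Piwi (1), Panx (2) or Nxf2 (2), called EGFP-KD, Piwi-KD, Panx-KD and Nxf2-KD for knockdown. The labels' protocols give these libraries as poly(A)+ selected, while another field names total RNA. It was also set beside crosslinking and immunoprecipitation (CLIP) of Piwi from OSC (2 samples) with its size-matched input (SMInput, 1). CLIP of Nxf2 came from a stable OSC line that expresses myc-Nxf2, with knockdown of EGFP and of endogenous Nxf2 (2 samples), and had its own SMInput (2). Each deposited table holds 1 column per condition, so no difference below has a replicate check, and every interval is a 95% counting interval for these libraries alone. Sequenced reads are not independent molecules, so intervals and the limits from 0 reads cover counting error only. Neither small RNA from an IP with another antibody nor the total small RNA of the cells was analysed here, so the level of unspecific recovery is not known. Marker genes of follicle or germ cells are not rows of these tables, and the cell type and the knockdowns were not checked here. In bulk RNA, fewer cells that express an element and less RNA per cell cannot be told apart.

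Piwi is a nuclear Argonaute protein that binds small RNAs, called piRNAs, and is guided by them to nascent transposon transcripts. Panx and Nxf2 act with Piwi in silencing these transcripts, together with the repressive histone mark H3K9me3. In follicle cells most piRNAs are made from long precursor transcripts of clusters such as flamenco, which is rich in remnants of gypsy-like retrotransposons, and the slicing-dependent amplification known from germ cells is absent. Read length, strand and sequence of the small RNAs were not analysed here, so "small RNA" below means every read that the authors counted on an entry.

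The small RNA library total, recovered from counts over RPM, was 3187937 reads. The counts on elements summed to 1201621, or 37.7% of that total (Wilson interval 37.6 to 37.7%). By comparison, elements took 5.68% of the reads of control RNA. How the authors counted a read that matches more than 1 entry is not given in the sources used here. Entries with related sequence may therefore share reads, and sums over entries may count a read more than once. Small RNA levels are given as RPM, reads scaled to a fixed library size, and as RPM per kb of entry, the scale on which entries of different length were compared.

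A few families supplied most of the small RNA. The 9 entries with the most reads held 50% of the element reads and 25 entries held 90%. The top 10 together held 57.1%. The median entry had 245 reads and 23.2 RPM per kb, while the highest, DM412, had 4456 RPM per kb. Of the 129 entries, 24 reached 1000 RPM per kb, 49 were under 10 RPM per kb and 5 had 0 reads. Longer entries had more reads (Spearman's rho 0.519 over 129 entries, as a description), and after division by length a weaker relation remained (rho 0.345). The 15 entries with the most reads and the 15 with the highest level per kb had 13 in common.

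**Figure D1:**
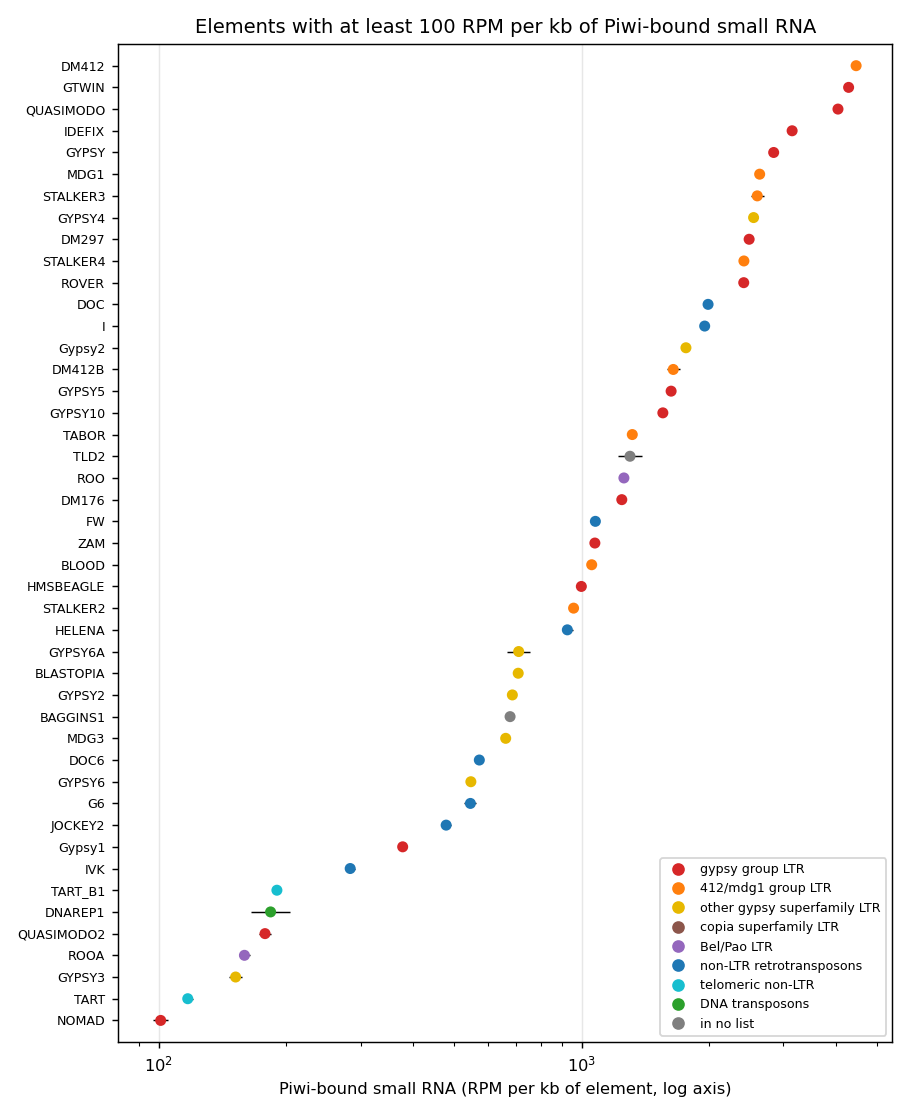
Each point is 1 of the entries with at least 100 RPM per kb of Piwi-bound small RNA (log axis), coloured by class, with its 95% Wilson counting interval as a bar (mostly narrower than the point). DM412, GTWIN and QUASIMODO lead at 4456, 4278 and 4037 RPM per kb, and red and orange points, the gypsy group and the mdg1 group, fill most of the upper part.

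The gypsy group held the largest share, 48.3% of all element small RNA reads on 19 entries. These are long terminal repeat (LTR) retrotransposons, several of which carry an env-like gene as retroviruses do. Its median was 1074 RPM per kb, against 23.2 for all 129 entries, and 10 of 19 entries reached 1000 RPM per kb. GTWIN had 94316 reads, 2.96% of the library, or 4278 RPM per kb (interval 4251 to 4305). QUASIMODO followed with 86460 reads or 4037 RPM per kb (4011 to 4064), and its interval lay below that of GTWIN. IDEFIX, which like ZAM is known to be controlled by the flamenco locus, had 3145 RPM per kb (3122 to 3168).

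GYPSY, the element for which the group is named, had 63376 reads and 2844 RPM per kb. DM297 had 2489 and ROVER 2417 RPM per kb. Lower in the group were GYPSY5 (1627 RPM per kb), GYPSY10 (1556), DM176 (1244) and ZAM (1074). HMSBEAGLE, at 998 RPM per kb, was the first of all entries under the limit of 1000, and BLOOD, of the mdg1 group, at 1056, the last above it. The group also had members with little small RNA. TIRANT, an LTR element with an env-like gene, had 204 reads or 7.89 RPM per kb (6.88 to 9.05), and BURDOCK had 45 reads or 2.30 RPM per kb (1.72 to 3.08). Levels within the group thus ran from 2.30 to 4278 RPM per kb.

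Entries of the mdg1 group, LTR elements related to gypsy that include DM412, were high as a whole. Their 8 entries held 24.4% of element small RNA reads, the median was 2033 RPM per kb and none was under 957. DM412 was the single largest source, with 98846 reads, 3.10% of the library (3.08 to 3.12%), or 4456 RPM per kb (4429 to 4484). MDG1 had 59131 reads and 2635 RPM per kb (2614 to 2657). STALKER4 had 2419 RPM per kb (2398 to 2439), which overlapped the interval of ROVER.

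The other members of the mdg1 group were TABOR (1317 RPM per kb), BLOOD (1056) and STALKER2 (957), and a pair of short entries. STALKER3, an entry of 372 bases, had 3085 reads and 2601 RPM per kb. DM412B, of 571 bases, had 2997 reads and 1646 RPM per kb. A level per kb of so short an entry rests on few positions, and reads of STALKER4 or DM412 may match these entries too. Of the 13 entries under 1000 bases, 3 reached 1000 RPM per kb, the third being TLD2 (218 bases, 904 reads, 1301 RPM per kb), which is in no class list.

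The 25 other entries of the gypsy superfamily were mostly low, with a median of 8.53 RPM per kb. They held 12.3% of the reads, nearly all on a few entries. GYPSY4 had 53445 reads and 2550 RPM per kb (2528 to 2571), and Gypsy2 had 38708 reads and 1764 RPM per kb. Another 6 lay between 100 and 1000 RPM per kb, among them BLASTOPIA (708), MDG3 (661) and GYPSY6 (547). The remaining 17 were under 100 RPM per kb, down to INVADER6 with 2 reads (0.140 RPM per kb, interval 0.0383 to 0.509). Gypsy2 and GYPSY2 are separate entries whose names differ only in case. GYPSY2 had 14178 reads and 685 RPM per kb.

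Bel/Pao elements, another LTR superfamily, had 3.28% of the reads on 7 entries, and a single entry made up most of that. ROO, one of the most numerous transposons of the fly genome, had 34838 reads and 1258 RPM per kb (1245 to 1272). ROOA had 159 RPM per kb. The other 5 were under 100 RPM per kb: BATUMI at 23.2, DIVER2 at 5.33, DIVER at 5.19, BEL at 2.72 (2.06 to 3.59) and MAX at 1.75.

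The copia superfamily had 0.272% of the small RNA reads on 5 entries and no entry above 100 RPM per kb. COPIA had 966 reads or 62.2 RPM per kb (58.4 to 66.3). Copia1 also had 966 reads and COPIA2 had 970. These 3 small RNA counts were thus within 4 reads of each other, although the control RNA counts of the same entries were 368131, 576 and 57. Whether the same small RNA reads were counted on all 3 entries was not tested. DM1731 had 343 reads and FROGGER had 25.

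Non-LTR retrotransposons, which have no long terminal repeats and are copied at the site of insertion, held 9.09% of the reads on 31 entries. Their median was 16.5 RPM per kb, and 3 reached 1000. DOC, of the jockey clade, had 1990 RPM per kb (1968 to 2013). The I element, the agent of I-R hybrid dysgenesis in the germline, had 1954 RPM per kb (1933 to 1975), and the 2 intervals overlapped. FW had 1077 RPM per kb.

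A further 5 entries of the non-LTR list lay between 100 and 1000 RPM per kb, led by HELENA (925), DOC6 (573) and G6 (545). Of the elements known to insert into ribosomal RNA genes, R2 had 0 of 3187937 reads, which allows up to 0.941 RPM, and R1 had 244 reads or 14.3 RPM per kb (12.6 to 16.2). DMRT1C had 5 reads, and G7 was also at 0 reads.

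The telomeric elements, which maintain fly chromosome ends, were uneven. TART_B1 had 6460 reads and 190 RPM per kb (186 to 195), and TART 5402 reads and 117 RPM per kb (114 to 120). HETA had 4 reads, 0.206 RPM per kb (0.0802 to 0.531), and TAHRE had 6 reads, 0.180 RPM per kb (0.0824 to 0.392).

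DNA transposons, which move by excision or rolling-circle copying without an RNA intermediate, held 0.229% of the small RNA reads on 22 entries, with a median of 9.72 RPM per kb. DNAREP1 had the highest level, 184 RPM per kb on 348 reads (interval 165 to 204). HOBO had 86.3, PROTOP 21.3 and POGO 3.25 RPM per kb. Transib1 had 5 reads, and HELITRON1 had 0. The other entries at 0 reads, TLD1 and TLD3, are 196 and 172 bases long and in no class list. BAGGINS1, also in no list, had 11770 reads and 677 RPM per kb, and R1-2 had 6 reads. The non-LTR list names BAGGINS, R1 and G5 but not BAGGINS1, R1-2 or G5A, so the non-LTR values leave these entries out.

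**Figure D2:**
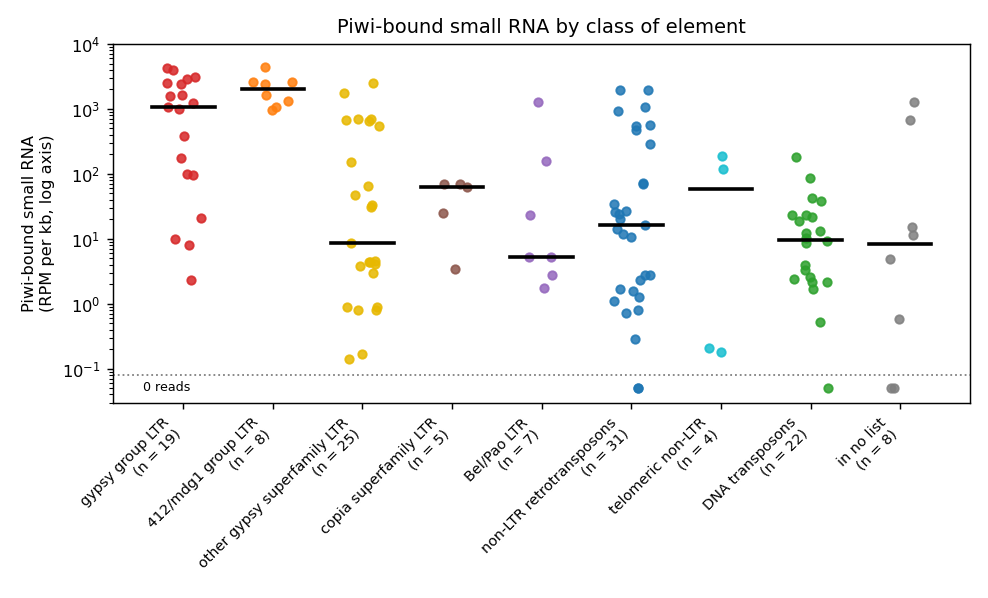
Every point is 1 of the 129 entries, placed by class (columns, with the number of entries) and by Piwi-bound small RNA in RPM per kb (log axis), with 0 reads drawn under the dotted line and the class median as a bar. The mdg1 group is the only column with no point under 957 RPM per kb, while the gypsy group runs from 2.30 to 4278 and the non-LTR elements from 0 to 1990.

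Small RNA and element RNA in control cells were only weakly related under the main filter, and the relation changed with the filter. Over the 111 entries whose mean of the 2 values was at least 1, small RNA in RPM per kb and EGFP-KD RNA in RPKM (reads per kb of entry, scaled to the library total as RPM is) had a Spearman's rho of 0.197 and a Pearson's r of 0.141 on log2(value + 1). With no filter rho was 0.393, and with a mean of at least 10 it was -0.126. The filter is on the mean of the 2 correlated values, so it drops entries low in both, which by itself tends to lower rho. The size and sign of rho thus depend on the filter. Families are related to each other, and the libraries come from different assays, so these values describe the entries and carry no test.

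The 10 entries with the most control RNA held 95.8% of control element RNA reads and 5.22% of the small RNA reads. COPIA was the extreme case, with 7672 RPKM of control RNA and 62.2 RPM per kb of small RNA. The ratio of small RNA RPM to control RNA reads on the same scale, in which entry length cancels, was 0.00811 (0.00761 to 0.00864). GYPSY12 had a ratio of 0.00847 (0.00517 to 0.0131), POGO 0.0199 (0.0124 to 0.0301) and BEL 0.0220 (0.0163 to 0.0290). Their control RNA was 94.0, 164 and 124 RPKM, in the same order. Gypsy1, second to COPIA with 1428 RPKM, had 377 RPM per kb and a ratio of 0.264. BLOOD, with 428 RPKM and 1056 RPM per kb, was the only entry of these 10 to reach 1000 RPM per kb.

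At the other end stood entries with abundant small RNA and little RNA. ROVER, with 56377 small RNA reads, had 17 control RNA reads (0.236 RPKM), a ratio of 10249 (6401 to 17595). GTWIN had 43 control reads (0.631 RPKM) and a ratio of 6779 (5032 to 9367). GYPSY2 had a ratio of 3651, QUASIMODO 958, ROOA 947 and IDEFIX 906. Over the 77 entries with at least 10 reads on both sides, this ratio had a median of 17.4, and 13 entries were under 1.

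Some entries with much small RNA had almost no RNA in any of the 4 RNA columns. GYPSY10 had 8 RNA reads in EGFP-KD and 6 in each of the other columns. HELENA (3883 small RNA reads) and STALKER3 had 0 control RNA reads, as did 25 of the 129 entries in all, which together held 0.773% of the small RNA reads. JOCKEY2, with 5224 small RNA reads, had 1 RNA read in EGFP-KD and 2 in Piwi-KD cells, and G6 had 1 and 3. Among the 24 entries with at least 1000 RPM per kb, the median control RNA was 4.25 RPKM, and 19 were under 10 RPKM.

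**Figure D3:**
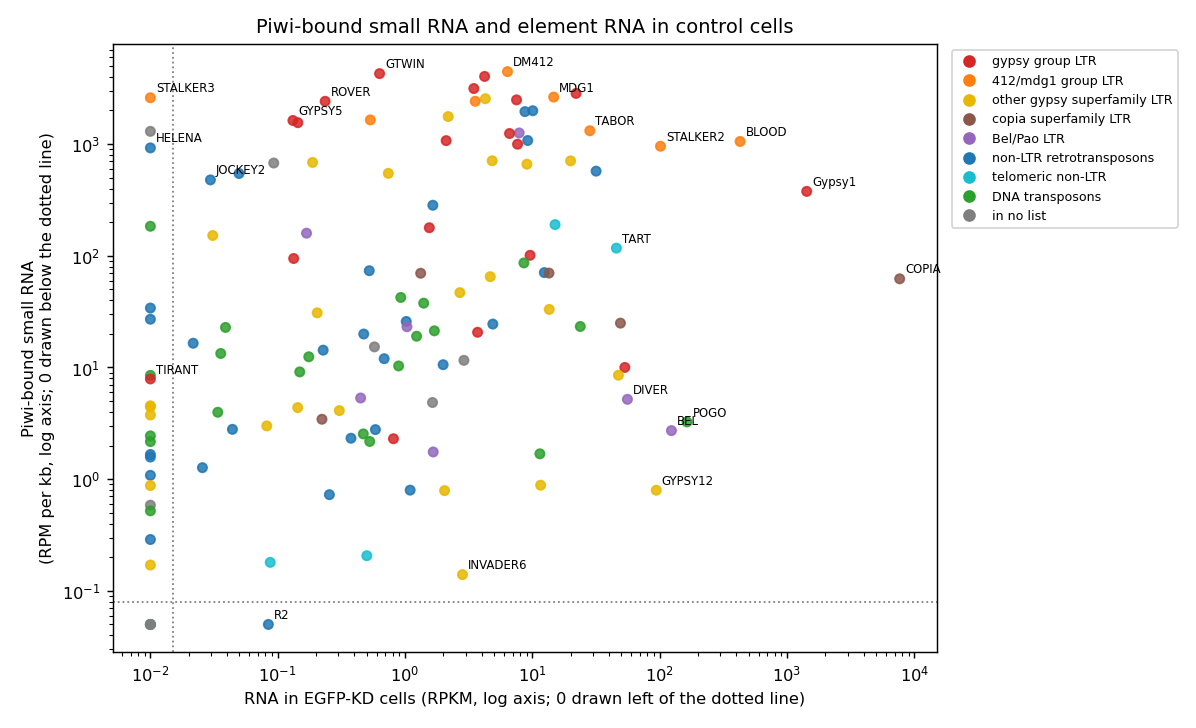
Points are the 129 entries, by RNA in EGFP-KD cells (RPKM, log axis, 0 drawn left of the dotted line) and Piwi-bound small RNA (RPM per kb, log axis, 0 drawn below the dotted line). Entries with the most small RNA, such as GTWIN at 0.631 RPKM and DM412 at 6.37 RPKM, sit far left of COPIA at 7672 RPKM, and POGO, BEL and GYPSY12 fill the lower right.

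Entries with much Piwi-bound small RNA were mostly those whose RNA rose when Piwi was depleted. An entry was called higher where its Piwi-KD reads per library total were at least 2-fold those of EGFP-KD and the exact conditional binomial interval lay above 1, among the 65 entries with a mean of at least 1 RPKM over the 4 RNA columns. Over all of these, 28 were called higher (43.1%) and 2 lower (3.08%). With the entries ranked by small RNA per kb and cut into 4 rank groups of 32 or 33 entries, 22 of 26 tested entries of the highest group were called higher, 3 of 20 in the next, 1 of 10 in the third and 2 of 9 in the lowest. The median ratio of all tested entries was 1.50 (0.59 on the log2 scale). Centred on it, the numbers called higher were 20, 1, 0 and 2, and BLOOD, BLASTOPIA, COPIA, Copia1 and PROTOP_B were under the 2-fold limit.

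That filter lets in entries through their Piwi-KD level: GTWIN, DM412B, GYPSY5 and Transib1 were under 1 RPKM in control cells and all 4 were called higher. Among the 61 entries with at least 1 RPKM in control cells, 24 were called higher (39.3%), and 19 of 23, 3 of 20, 1 of 10 and 1 of 8 by rank group. Tested entries that were called higher had a median of 1288 RPM per kb of small RNA, and those called neither way a median of 24.5. Over the 65 entries the log2 ratio and log2 small RNA per kb had a Spearman's rho of 0.554 and a Pearson's r of 0.629, again as a description. These medians and correlations include the 4 entries let in by their Piwi-KD level and were not recomputed without them.

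Among the entries highest in small RNA the size of the rise varied widely. DM412, first in small RNA, went from 6.37 to 1035 RPKM, 162-fold (148 to 179). GTWIN rose 72.6-fold (53.8 to 101), from 0.631 to 45.8 RPKM, and QUASIMODO 49.6-fold (44.0 to 56.0). IDEFIX, next in small RNA, went from 3.47 to 19.5 RPKM, 5.61-fold (4.87 to 6.48). GYPSY5 had 1627 RPM per kb of small RNA and the highest ratio named here, 514 (271 to 1126), on 9 control reads and 4214 Piwi-KD reads. The non-LTR entries rose less than DM412: the ratio was 8.28 (7.52 to 9.15) for I, 3.20 (2.88 to 3.57) for DOC and 3.35 (3.00 to 3.75) for FW.

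By class, the counts are given for entries with at least 1 RPKM in control cells, beside the 24 of 61 (39.3%) called higher over all classes. In the mdg1 group 6 of 6 were called higher, with a median ratio of 26.8. In the gypsy group it was 5 of 12, near the share over all classes, with a median of 1.35. With GTWIN and GYPSY5, which passed the filter only through their knockdown levels, it was 7 of 14 with a median of 3.56. Among non-LTR retrotransposons 6 of 10 were called higher, among other gypsy entries 3 of 13, and of the 2 tested telomeric entries none. TART went from 45.7 to 31.9 RPKM in Piwi-KD cells, and TART_B1 from 15.1 to 11.0.

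Several entries with abundant small RNA were not called higher. GYPSY4 had 2550 RPM per kb of small RNA and 277 control RNA reads, yet its Piwi-KD ratio was 0.698 (0.574 to 0.846). ZAM had a ratio of 1.50 (1.23 to 1.85), under the 2-fold limit. HMSBEAGLE had a ratio of 0.901 (0.790 to 1.03). GYPSY6A, a 420-base entry at 710 RPM per kb, was called lower, from 20 to 6 reads, as was DIVER, at 5.19 RPM per kb, from 55.8 to 25.2 RPKM. Of the highest rank group, 7 entries were too low in RNA to be tested: STALKER3, ROVER, GYPSY10, TLD2, HELENA, GYPSY2 and BAGGINS1. ROVER, under the filter, went from 17 to 115 reads.

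Conversely, some entries with little small RNA were called higher. BS2, a non-LTR element with 12 small RNA reads, went from 51 to 287 RNA reads, 6.18-fold (4.58 to 8.50). Transib1, a DNA transposon with 5 small RNA reads, went from 0 to 117 RNA reads. Its ratio was 42.8 with a floor of 3 reads in place of 0, and its interval began at 34.3. TRANSIB2, which was under the filter, had 1 control read and 71 Piwi-KD reads, a ratio of 78.0 (13.6 to 3123), beside 121 small RNA reads. COPIA, at 62.2 RPM per kb above the median entry but low in small RNA beside its RNA, rose 2.84-fold, from 7672 to 21824 RPKM.

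The Panx-KD and Nxf2-KD comparisons share the EGFP-KD reads with the Piwi-KD comparison, so their values are given side by side only. Each called 22 of 65 tested entries higher (33.8%) and 0 lower. Of the 24 entries with at least 1000 RPM per kb, 20 were tested; 18 were called higher in Piwi-KD, 15 in Panx-KD and 13 in Nxf2-KD cells. Among the 17 of these with at least 1 RPKM in control cells, which leaves out GTWIN, DM412B and GYPSY5, it was 15, 12 and 10, beside 24, 18 and 18 of all 61 such entries. MDG1 was at 14.7 RPKM in control, 644 in Piwi-KD, 852 in Panx-KD and 891 in Nxf2-KD cells. GTWIN was at 0.631, 45.8, 1.66 and 1.73 RPKM in the same order. IDEFIX was at 3.47, 19.5, 4.66 and 4.37 RPKM, and was not called in Panx-KD or Nxf2-KD cells. Whether these knockdowns differ for an entry was not tested.

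**Figure D4:**
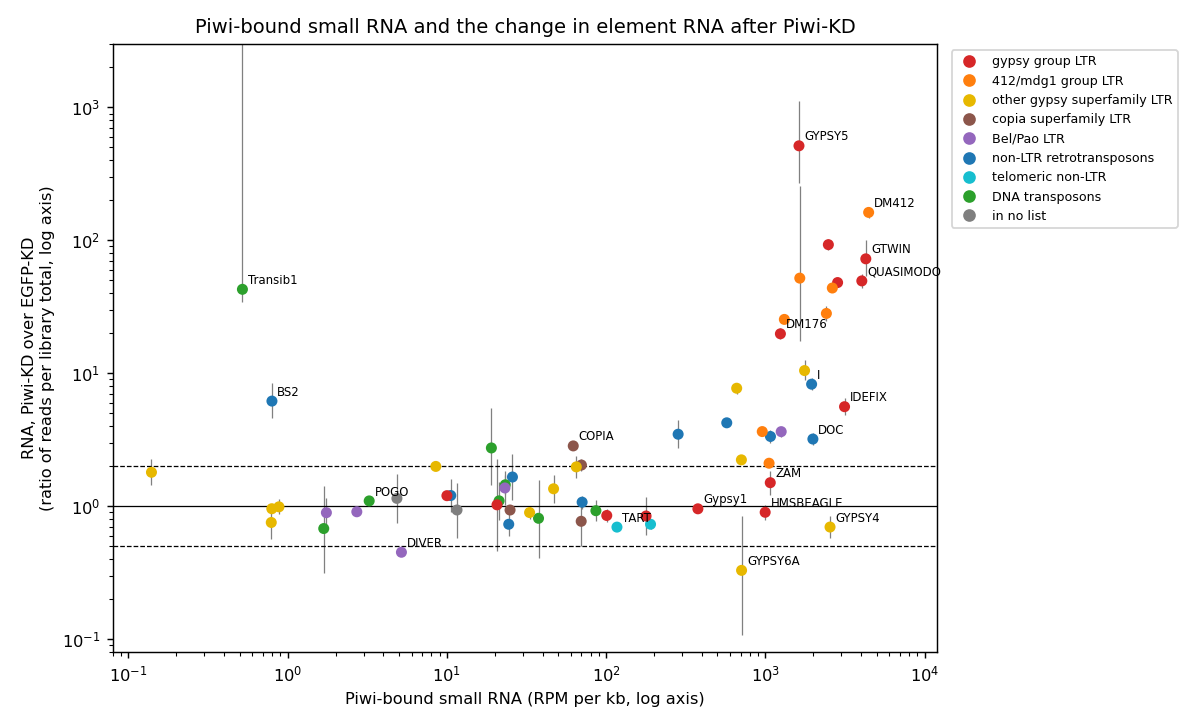
Points are the 65 tested entries, by Piwi-bound small RNA (RPM per kb, log axis) and the ratio of Piwi-KD to EGFP-KD RNA (log axis), with 95% counting intervals as bars (the bar of Transib1 has no upper end). Points to the right mostly lie far above 1, such as DM412 at 162, while GYPSY4 at 0.698 and HMSBEAGLE at 0.901 do not, and BS2 at 6.18 and Transib1 lie high at the left.

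Entries with much small RNA were also more often enriched over SMInput in Piwi CLIP. For CLIP an entry was called higher where its reads per library total were at least 2-fold those of SMInput with an interval above 1, among entries with a mean of at least 1 RPM. In Piwi CLIP 56 of 98 tested entries were called higher (57.1%) and 3 lower (3.06%). By rank group of small RNA per kb, from high to low, 28 of 31, 19 of 30, 7 of 21 and 2 of 16 were called higher. This filter also lets in entries through the IP alone: 23 of the 98 had 0 SMInput reads, and 11 of these were called higher, GTWIN, ROVER and GYPSY5 among them. Among the 75 with at least 1 RPM in SMInput, 45 were called higher (60.0%), and 22 of 24, 15 of 23, 6 of 15 and 2 of 13 by rank group. The median ratios of the rank groups, without that limit on SMInput, were 13.4, 3.00, 1.98 and 2.15, beside 3.14 over all tested entries. The lowest group thus had few calls but a median no lower than the third. Entries with few reads have wide intervals and can miss a call. BURDOCK, with 1 SMInput and 10 IP reads, had a ratio of 6.09 (0.866 to 264) and was not called. Over the 98 entries, with those at 0 SMInput reads included, rho was 0.609 and r 0.616. The labels name the same anti-Piwi antibody for the CLIP and the small RNA, and whether small RNA reads entered the CLIP counts was not tested.

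MDG1 had 7 SMInput and 952 IP reads, a ratio of 82.8 (40.0 to 206). QUASIMODO had a ratio of 49.4 (19.1 to 183) and I 37.6 (27.8 to 52.1). GTWIN had 13 IP reads against 0 in SMInput, a ratio of 2.64 with the floor of 3 reads in place of 0, and its interval began at 1.85. ROVER, with almost no RNA in control cells, had 87 IP reads against 0 and was called higher. GYPSY4 and HMSBEAGLE, not called higher in Piwi-KD RNA, had Piwi CLIP ratios of 8.37 (5.04 to 14.9) and 12.9 (7.07 to 26.2). COPIA had a ratio of 7.36 with 62.2 RPM per kb of small RNA. By reads rather than ratio, COPIA alone held 64770 of the 108320 Piwi CLIP reads on elements. R2, at 0 small RNA reads, was called lower with 15 SMInput and 5 IP reads, and so was R1, with 16 and 8.

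In Nxf2 CLIP of EGFP-KD cells, too, calls were mostly on entries with much small RNA. Of 79 tested entries 39 were called higher (49.4%) and 3 lower (3.8%), and by rank group it was 25 of 28, 8 of 26, 3 of 14 and 3 of 11. Of the 11 entries under 1 RPM in SMInput, 6 were called higher, namely GTWIN, IDEFIX, Gypsy2, ROOA, DM1731 and BURDOCK. Among the 68 others 33 were called higher (48.5%), and 22 of 24, 6 of 21, 3 of 13 and 2 of 10 by rank group. Over the 79 entries, with the 11 under 1 RPM in SMInput included, rho was 0.772 and r 0.754. QUASIMODO had a ratio of 30.7 (18.5 to 54.6), GYPSY 19.0 (16.6 to 21.7) and GYPSY4 11.4 (6.10 to 23.4). None of the 9 tested DNA transposons and none of the 3 tested telomeric entries was called higher. STALKER3 and HELENA, at 2601 and 925 RPM per kb of small RNA, had 0 reads in all 4 of these CLIP columns.

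**Figure D5:**
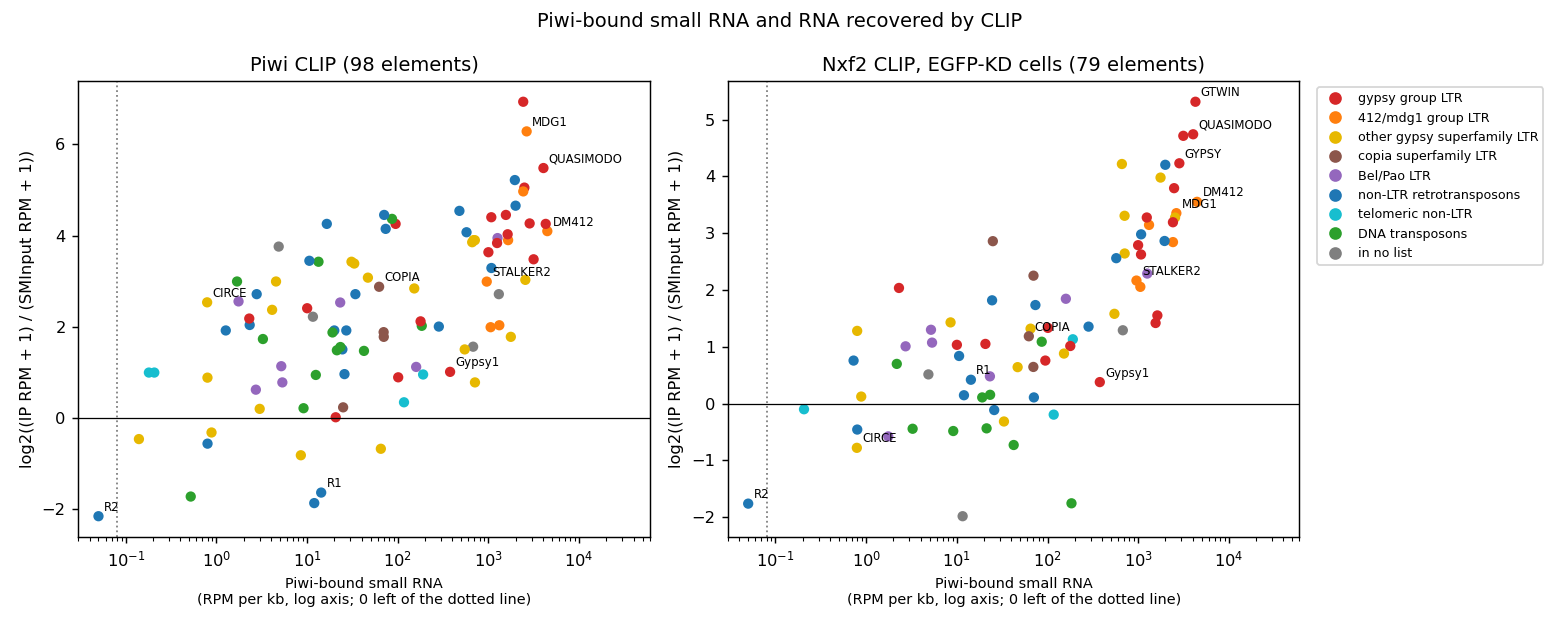
Points are entries with a mean of at least 1 RPM, by Piwi-bound small RNA (RPM per kb, log axis) and by log2((IP RPM + 1)/(SMInput RPM + 1)), for Piwi CLIP (left, 98 tested) and Nxf2 CLIP in EGFP-KD cells (right, 79 tested). In both panels the points rise to the right, where 28 of 31 and 25 of 28 entries of the highest rank group were called higher, or 22 of 24 in each panel with at least 1 RPM in SMInput.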

How the data were processed

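Per the labels, 1 library of small RNA was made from an anti-Piwi IP of OSC. The authors deposited raw counts per transposable element consensus entry, RPM for small RNA and CLIP and RPKM for RNA, with the length of each entry, per the file headers. One RNA column, Nxf2-KD, is headed without a unit, and its values were checked to follow the RPKM formula. The submitters' processing notes name the dm3 build, with cutadapt and Bowtie for small RNA, TopHat2 2.0.14, Bowtie 1.0.1, DESeq2 and Bowtie2 2.2.9 for RNA, and cutadapt, STAR, SAMtools and Bowtie for CLIP, with no role or order. Whether a column pools replicates and how reads that match several entries were counted are not given in the sources used here.

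Library totals were recovered from counts over RPM or RPKM: 3187937 small RNA reads, 8968998 to 9852335 RNA reads and 436470 to 2438071 CLIP reads. Shares were given Wilson intervals, and ratios of reads per library total exact conditional binomial intervals, both at 95%, with Python 3.11.15 and SciPy 1.17.1 and tested on simulated data. Entries entered a comparison with a mean of 1 or more (RPKM for RNA, RPM for CLIP). A call needed a change of 2-fold or more either way and an interval that did not contain 1. With 1 column per condition no test between samples and no edgeR fit was possible. Correlations used log2(value + 1). No ratio was taken where both sides were at or under 3 reads, and 0 reads were replaced by that floor.

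Named by rule were the 15 entries with the most reads, the 15 highest per kb, those at 0, the 10 lowest above 0, the 8 highest and 8 lowest ratios to control RNA, and 35 fixed names, of which 33 matched (Juan and F did not). Other entries, such as BS2, TRANSIB2, HMSBEAGLE, HELENA, JOCKEY2, G6, GYPSY6A and BAGGINS1, were chosen after their values were seen. The members, class lists and named entries were chosen with earlier results of these data known. Alternatives were other pseudocounts, filters, lengths and centring. The UV crosslinking CLIP table and the H3K9me3 peak lists were not used here.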

Additional observations from a re-analysis of the deposited data

How the results depend on the processing

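Of 78 values recomputed under another setting, 58 were labelled the same, 18 moved and 2 reversed. A correlation was called moved past a change of 0.1, and a count past 1.5 times. A count labelled the same could still differ, as 28 and 22 did for Piwi CLIP in the highest rank group. Some of the 58 could not change, so their number does not measure how stable the results are. These were the Spearman's rho against control RNA under another pseudocount, correlations with ratios centred on their median, and medians of classes that lost no entry. As a share of element reads, in place of library reads, DM412 held 8.23%. Small RNA against control RNA gave a Spearman's rho of 0.393 and a Pearson's r of 0.265 with no filter. With a mean of at least 10 they were -0.126 and -0.192, where both changed sign under a filter on the correlated values themselves. Against the Piwi-KD change rho was 0.354 with no filter and 0.861 with a mean of at least 10, where r was 0.783. That mean takes in the knockdown columns, so GTWIN and GYPSY5, under 1 RPKM in control cells, still passed. Against Piwi CLIP a pseudocount of 0.1 gave a rho of 0.441 and an r of 0.449. With entries of at least 1000 bases the class medians were 6.53 RPM per kb for other gypsy entries, 18.2 for non-LTR, 12.5 for DNA transposons and 11.6 for entries in no list, and without Gypsy2 and GYPSY2 the other gypsy median was 4.54. Entries called higher in Piwi-KD RNA numbered 0 in the third and 0 in the lowest rank group of small RNA with a mean of at least 10 RPKM. Chosen after seeing the data, centring left 1 in the second and 0 in the third group, and at least 1 RPKM in EGFP-KD left 1 in the lowest, while at least 1 RPM in SMInput moved no CLIP count by over 1.5 times. The cause was not tested. No paired analysis was possible because each condition has 1 column, and for the same reason no replicate could be left out. Depth limits entries with few reads: 5 had 0 and 11 had 1 to 9.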

Other observations

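The lengths of 4 pairs of entries were identical (FROGGER and GYPSY12A, DMRT1A and DMRT1B, GYPSY3 and GYPSY4, BATUMI and MAX). GYPSY3 and GYPSY4, of 6575 bases each, had 3184 and 53445 small RNA reads. Small RNA per kb and Piwi-KD RNA in RPKM had a Spearman's rho of 0.379 and a Pearson's r of 0.425 over 111 entries. For control RNA the values were 0.197 and 0.141, again as a description. These entries were chosen by the mean of small RNA and control RNA, and Piwi-KD RNA was not used. That filter tends to lower the control values, where rho was 0.393 with no filter. The Piwi-KD values were not recomputed without it. The pairs of values are therefore not like measures, and their difference was not tested. TIRANT, with 204 small RNA reads, had 0 RNA reads in all 4 RNA columns. HETA, with 4 small RNA reads, had 30 RNA reads in EGFP-KD and 11 in Piwi-KD cells and was under the filter.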
